A study of Mus musculus with 9 samples.

Results

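Cholesterol genes were followed in cultured mouse knee chondrocytes, the cells that build cartilage. The set holds 33 genes for cholesterol synthesis, its control, intracellular transport, storage and efflux, and the oxysterol enzymes Ch25h and Cyp7b1. They were taken by gene name from a table of 56748 genes. All 33 were in the table and all passed the filter on low counts, which kept 15502 genes. The cells came from wild-type mice and were released from knee cartilage with collagenase. RNA sequencing covered 3 groups of 3 libraries: untreated control cells, cells given the inflammatory cytokine IL-1β, and cells given IL-1β with recombinant SFRP5, a secreted antagonist of Wnt signalling. The labels do not give dose, duration, mouse age or strain, nor whether libraries came from separate animals or cultures. The p-values therefore speak of library-to-library spread, part or all of which may be technical. No group had SFRP5 without IL-1β, so effects of SFRP5 are known here only in inflamed cells.

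Library totals ran from 15795985 to 20688963 counts, and 3 counts in 1 library equalled 0.135 to 0.195 CPM, which are counts scaled by the TMM-corrected library size. Chondrocyte markers were abundant in every library. Summed over 10 markers, control libraries had 109200 to 111700 CPM, IL-1β libraries 22780 to 23930 and libraries with SFRP5 28400 to 29740. Col2a1 made up most of these sums, at means of 74500, 15410 and 20770 CPM. All 10 markers fell with IL-1β. When SFRP5 was added, 5 rose and 5 did not pass. Endothelial markers were low, with 2 of 6 tested and Emcn at 0 throughout. Their sum was 0.768 to 1.11 CPM in control, 3.75 to 4.68 with IL-1β and 2.54 to 3.64 with SFRP5. Both tested markers rose with IL-1β. Cdh5 held 1, 87 and 42 counts over the control, IL-1β and SFRP5 groups, and Tek 18, 68 and 94. The sum of 5 synovial fibroblast markers was 187.7 to 190.2 CPM in control, 862.5 to 919.3 with IL-1β and 1119 to 1152 when SFRP5 was added. Of these 5, Prg4 and Pdpn rose with IL-1β and carried the sum, Thy1 and Pdgfra fell, and Cd55 did not pass. IL-1β library 3 stood somewhat apart from its group: the chi-square per gene of its counts was 4.79 and 4.68 against the other IL-1β libraries, which gave 2.90 between themselves. Without it, 14 members were called higher and 14 lower with IL-1β, and 2 higher and 8 lower when SFRP5 was added, against 13 and 16 and 2 and 6 with all libraries. SFRP5 library 3 also stood apart, though less: its values were 3.65 and 4 against the other SFRP5 libraries, which gave 2.75 between themselves. In bulk RNA, fewer cells of a type and less RNA per cell cannot be told apart.

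Cells make cholesterol from acetyl-CoA through mevalonate, squalene and lanosterol. The transcription factors SREBP1 and SREBP2, escorted by SCAP, switch on the enzymes when membrane sterol is low, whereas INSIG proteins hold SCAP back in the endoplasmic reticulum when sterol is plentiful. Oxysterols, which are oxidised cholesterol products, bind INSIG proteins and activate the nuclear receptors LXRα and LXRβ, which raise the efflux pumps ABCA1 and ABCG1. CH25H makes 25-hydroxycholesterol, CYP7B1 hydroxylates such oxysterols further, and in osteoarthritic cartilage these enzymes have been linked to catabolism through the nuclear receptor RORα.

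The comparison of IL-1β with control asks how inflammation changes these genes. Among the members, the oxysterol enzymes and efflux pumps were higher with IL-1β, as were Insig2 and the squalene epoxidase gene Sqle. The genes of the early mevalonate steps were mostly lower. In all, 13 members rose and 16 fell, and 4 did not pass the test (edgeR's quasi-likelihood test, adjusted p under 0.05). Over all 15502 genes tested, 38.5% were called higher and 40.4% lower, so calls were common in this comparison and the members' share of calls was not far from that. The members' median log2 change was −0.23, against −0.03 over all tested genes. Changes of at least 2-fold were called in 6 members that rose and 5 that fell.

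**Figure D1:**
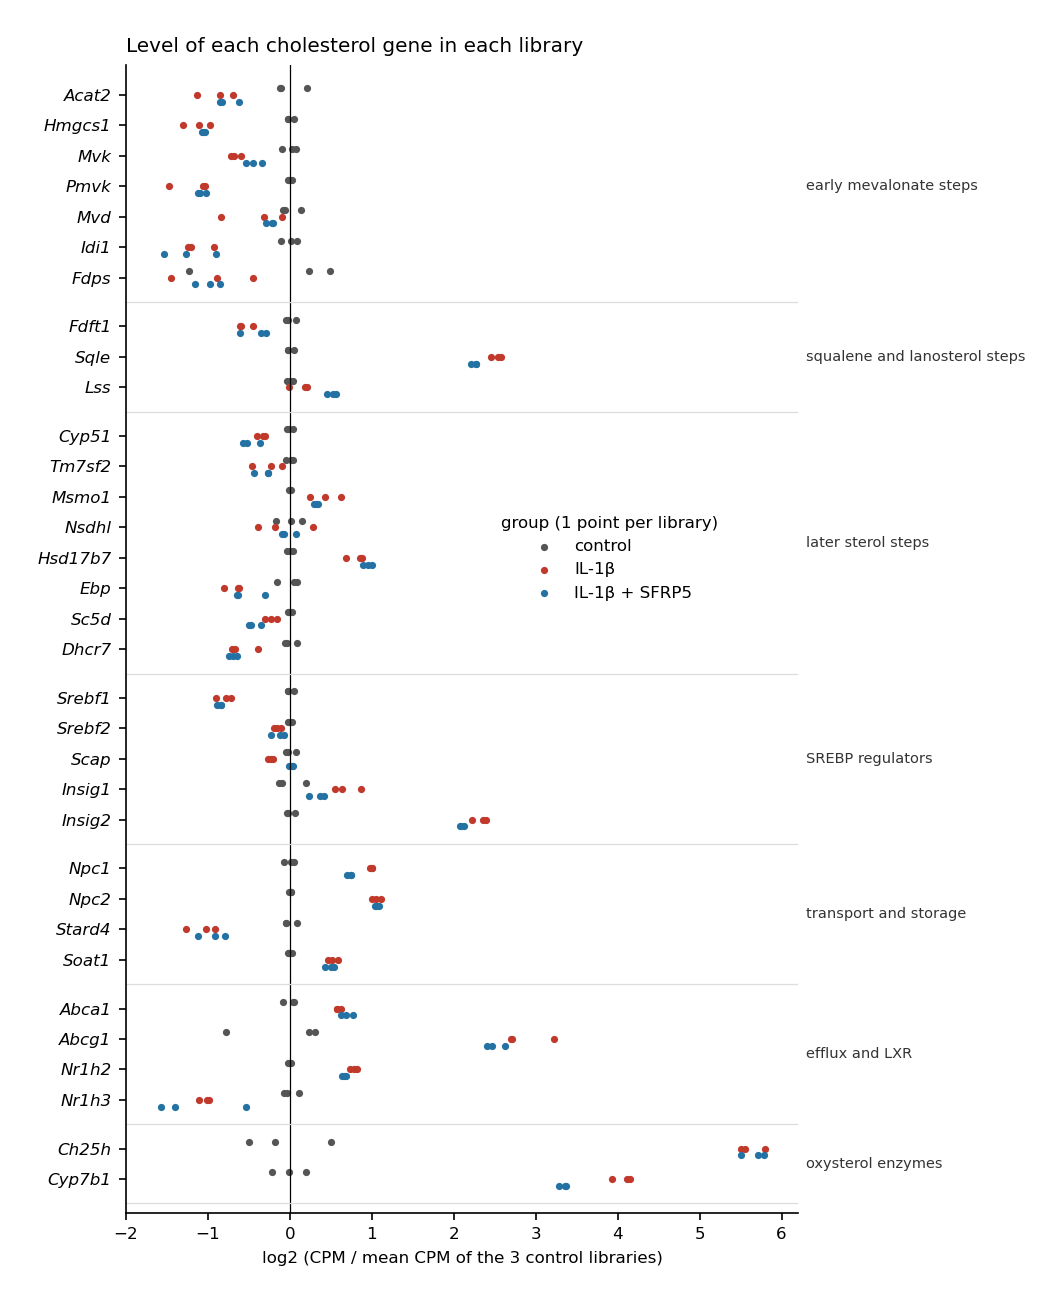
Each row is 1 gene and each point 1 library, placed at the log2 ratio of its CPM to the mean CPM of the 3 control libraries; colours mark control, IL-1β and IL-1β with SFRP5. Ch25h and Cyp7b1 lie farthest to the right with IL-1β, at fitted log2 changes of 5.57 and 4.06, followed by Abcg1, Sqle and Insig2, while Pmvk, Hmgcs1 and Idi1 lie to the left of control.

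Of 7 genes of the early mevalonate steps 6 fell, 0 rose and Fdps did not pass, with a median log2 change of −0.88. Hmgcs1 (ENSMUSG00000093930), the cytosolic HMG-CoA synthase that commits acetyl units to mevalonate, was at 67.2, 67.5 and 71.0 CPM in control and at 34.8, 31.9 and 27.7 CPM with IL-1β. All control libraries lay above all IL-1β libraries. It fell by 1.12 ± 0.06 (SE) on the log2 scale (edgeR, adjusted p = 1.77e-14), which is 2.18-fold lower.

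Pmvk (ENSMUSG00000027952), which adds the second phosphate to mevalonate, was at 9.40, 9.17 and 9.04 CPM in control and 4.50, 4.42 and 3.30 CPM with IL-1β. Its groups did not overlap, and it fell by 1.18 ± 0.15 (edgeR, adjusted p = 9.36e-08). Idi1 (ENSMUSG00000058258), which interconverts the isoprene building blocks, was at 9.60, 11.0 and 10.5 CPM against 4.38, 4.48 and 5.47 CPM. It fell by 1.12 ± 0.15 (edgeR, adjusted p = 3.27e-07), again without overlap. Its pseudogenes Idi1-ps1 and Idi1-ps3 held 22 and 1 counts over all libraries, so little of its signal can have been divided with them.

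The thiolase Acat2 fell from 14.6 ± 2.00 to 7.93 ± 1.20 CPM (mean ± SD, n = 3) and the kinase Mvk from 15.1 ± 0.911 to 9.55 ± 0.423 CPM. Mvd, which decarboxylates mevalonate diphosphate, fell least, from 9.87 ± 0.824 to 7.54 ± 1.87 CPM (edgeR, adjusted p = 0.0162). Its call rested on library 3 of either group: edgeR's adjusted p was 0.0724 without control library 3 and 0.222 without IL-1β library 3. Fdps, the farnesyl diphosphate synthase, had only 70, 32 and 31 counts over the control, IL-1β and SFRP5 groups. Sharing of reads with pseudogenes was not examined for Fdps. At this depth its difference of −0.85 ± 0.43 was not resolved (edgeR, adjusted p = 0.0739), although it passed without control library 2, at −1.23 (edgeR, adjusted p = 0.0105), and with upper-quartile factors.

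The steps around squalene did not move together. Sqle (ENSMUSG00000022351), the squalene epoxidase and a rate-limiting enzyme of the pathway, was at 52.3, 49.8 and 49.8 CPM in control and at 302.0, 295.0 and 276.8 CPM with IL-1β. The groups lay far apart, with a rise of 2.52 ± 0.05 on the log2 scale, or 5.75-fold (edgeR, adjusted p = 5.83e-25). Fdft1, the squalene synthase one step before it, fell from 27.7 ± 1.20 to 18.9 ± 1.16 CPM (edgeR, adjusted p = 1.65e-06). Lss, the lanosterol synthase one step after it, stood at 30.4 ± 0.795 and 33.2 ± 2.80 CPM and did not pass (0.13 ± 0.07, edgeR, adjusted p = 0.0834). Lss passed edgeR's test with RLE factors (adjusted p = 0.0447), without IL-1β library 3 (0.00437) and without SFRP5 library 2 (0.0412), and its difference was −0.02 with upper-quartile factors.

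Among 8 genes of the later sterol steps 2 rose, 4 fell and 2 did not pass, with a median of −0.24. Hsd17b7, the ketosteroid reductase of the pathway, rose from 16.7 ± 0.449 to 29.2 ± 2.12 CPM, and Msmo1, the methylsterol oxidase, rose from 45.8 ± 0.371 to 62.3 ± 8.10 CPM. The isomerase Ebp fell from 12.5 ± 1.09 to 7.79 ± 0.558 CPM and Dhcr7, which makes cholesterol in the final reduction, fell from 19.7 ± 1.12 to 13.2 ± 1.62 CPM. Cyp51, the lanosterol demethylase, fell by 0.35 and the desaturase gene Sc5d by 0.23 on the log2 scale. The reductase gene Tm7sf2 (2.92 ± 0.0846 and 2.45 ± 0.309 CPM) and the dehydrogenase gene Nsdhl (8.66 ± 0.961 and 8.27 ± 2.06 CPM) did not pass (edgeR, adjusted p = 0.283 and 0.669).

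Over the 18 synthesis genes, 3 rose, 11 fell and 4 did not pass, where 38.5% of all tested genes were called higher and 40.4% lower. Sqle took 10.7 to 11.5% of the CPM summed over these genes in control libraries and 45.6 to 46.6% with IL-1β. Without Sqle the control sum was 411.8 ± 7.26 CPM and the IL-1β sum 338.5 ± 22.0 CPM, and with Sqle it was 462.4 ± 5.81 and 629.8 ± 34.7 CPM. For each of these sums the groups did not overlap, and the exact two-sided permutation test gave p = 0.1, the smallest that 3 against 3 libraries allow. Per kilobase of the gene length given in the table, Srebf1 ranked 1 among the 33 members in control at 50.3 CPM per kb and Sqle ranked 12 at 9.13. With IL-1β, Npc2, Sqle and Insig2 held ranks 1, 2 and 3, at 54.9, 52.5 and 50.1 CPM per kb.

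**Figure D2:**
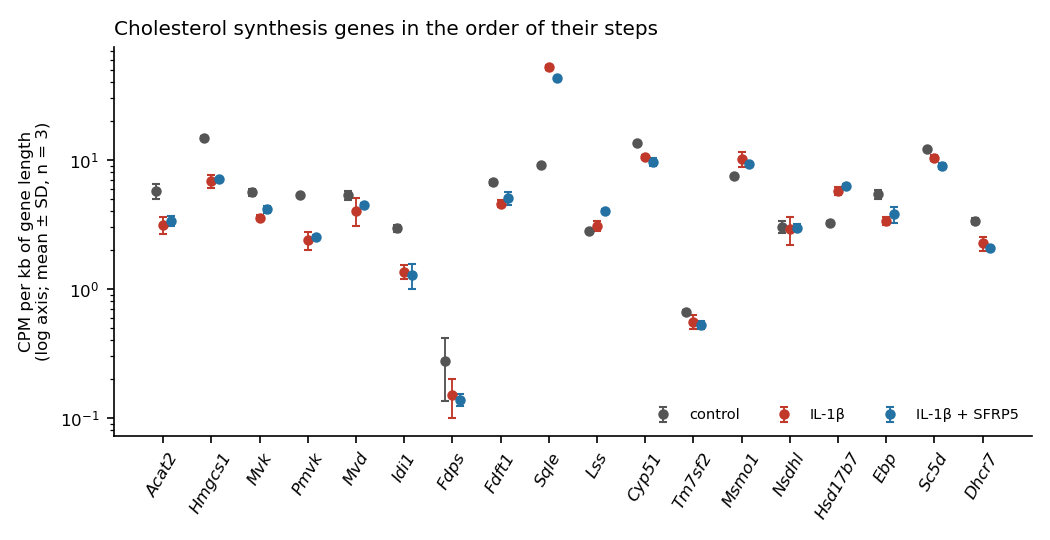
The 18 synthesis genes stand in the order of their steps, with the mean ± SD (n = 3) of CPM per kb of gene length on a log axis for the 3 groups. Sqle rises from 9.13 to 52.5 CPM per kb with IL-1β between neighbours that lie lower or near control; Fdps is the lowest gene in every group.

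Promoter sequence was looked at because SREBP proteins act together with the factor NF-Y, which binds CCAAT boxes. RefSeq promoter windows of 300 bases (GRCm38.p6) were matched for 26 of the 33 members. Sqle, Cyp7b1, Abcg1, Npc1, Stard4, Fdft1 and Fdps had no window and were not searched, several of the largest rises with IL-1β among them. CCAAT on either strand was found in a window of 14 of 15 synthesis genes (not Acat2) and of 20 of all 26 members. It was in a window of 41.1% of all genes in the table of promoters. Some genes have several windows, and counted by window it was in 21 of 35 for members (60%) against 37.4% of all. Neither Ch25h nor Abca1, Nr1h2 and Nr1h3 had one. The sterol regulatory element, searched as TCACNCCAC on both strands, was in the Hmgcs1 window only among members and in 1.44% of all genes. Elements with other letters or outside the windows would be missed. A κB motif, searched as GGGANTTCC on both strands, was in 0 of the 26 and in 1.92% of all genes. With shares so low, neither 1 of 26 for the sterol element nor 0 of 26 for κB sets the members apart. Such matches describe letters and not binding.

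The stretches just upstream of the start are printed for Hmgcs1 and Idi1, which fell with IL-1β, and for Insig2 and Hsd17b7, which rose. They are examples of windows with CCAAT boxes, and any link of the boxes to direction was not tested. Capitals mark CCAAT or its reverse complement ATTGG and, in Hmgcs1, the sterol regulatory element. All are read 5′ to 3′ on the gene's strand. Hmgcs1 is at chr13:119690171-119690350 (plus strand), Idi1 at chr13:8885486-8885605 (plus), Insig2 at chr1:121332590-121332739 (minus) and Hsd17b7 at chr1:169969206-169969375 (minus), each ending at the base before the start.
Hmgcs1: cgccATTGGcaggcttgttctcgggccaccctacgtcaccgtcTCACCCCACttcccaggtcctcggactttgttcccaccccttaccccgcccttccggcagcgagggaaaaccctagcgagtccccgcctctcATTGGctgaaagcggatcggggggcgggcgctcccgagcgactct
Idi1: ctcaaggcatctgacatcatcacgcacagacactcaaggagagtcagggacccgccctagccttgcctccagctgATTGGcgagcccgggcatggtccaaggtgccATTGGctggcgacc
Insig2: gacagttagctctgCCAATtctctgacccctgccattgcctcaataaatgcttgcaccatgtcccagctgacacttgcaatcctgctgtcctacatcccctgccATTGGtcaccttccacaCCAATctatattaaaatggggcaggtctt
Hsd17b7: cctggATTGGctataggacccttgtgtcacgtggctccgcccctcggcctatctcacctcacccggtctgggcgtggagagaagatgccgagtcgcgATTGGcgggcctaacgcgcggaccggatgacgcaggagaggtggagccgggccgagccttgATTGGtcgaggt

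Of the 5 genes that govern SREBP activity 2 rose and 3 fell with IL-1β. Insig2 (ENSMUSG00000003721), which encodes an endoplasmic reticulum anchor of SCAP, was at 36.3, 34.0 and 33.8 CPM in control and at 178.0, 182.3 and 161.3 CPM with IL-1β. No libraries overlapped, and the rise was 2.32 ± 0.05 on the log2 scale, or 5.01-fold (edgeR, adjusted p = 5.54e-23). Its paralog Insig1, itself a known SREBP target, rose less, from 38.3 ± 5.02 to 61.8 ± 7.20 CPM (0.69 ± 0.08, edgeR, adjusted p = 2.1e-08). The ratio of Insig2 to Insig1 counts was 0.773 to 1.01 in control libraries and 2.55 to 3.07 with IL-1β.

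The regulators that fell were the transcription factors and their escort. Srebf1, whose product drives fatty acid as well as sterol genes, fell from 283.1 ± 9.48 to 162.4 ± 10.4 CPM (0.80 ± 0.05 lower on the log2 scale, edgeR, adjusted p = 1.73e-14). Srebf2, whose product is the main activator of sterol synthesis, went from 113.2 ± 1.93 to 102.0 ± 2.83 CPM (−0.15 ± 0.05, edgeR, adjusted p = 0.00524), a call that was lost without IL-1β library 3 (−0.11, edgeR, adjusted p = 0.0611). Scap fell from 74.7 ± 3.19 to 63.5 ± 1.53 CPM (edgeR, adjusted p = 0.000101). Adipocyte markers moved the same way as Srebf1 with IL-1β: 4 of 6 were tested and all 4 fell. The sum of all 6 was 19.2 to 20.0 CPM in control, 8.14 to 9.26 CPM with IL-1β and 5.52 to 6.57 CPM with SFRP5 as well. Srebf1 did not pass when SFRP5 was added (−0.05 ± 0.05). The part of adipocytes in the fall of Srebf1 was not tested.

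Transport genes were mostly higher. Npc2 (ENSMUSG00000021242), the soluble protein that hands cholesterol to NPC1 inside lysosomes, was at 144.7, 142.3 and 144.9 CPM in control and at 297.3, 312.0 and 287.0 CPM with IL-1β, without overlap (1.05 ± 0.04, edgeR, adjusted p = 4.81e-18). Npc1, the membrane protein that exports it, rose from 69.3 ± 2.83 to 137.8 ± 1.52 CPM (0.99 ± 0.05). Soat1, which esterifies cholesterol for storage, rose from 169.3 ± 3.35 to 242.6 ± 10.8 CPM.

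Stard4 (ENSMUSG00000024378), a carrier of sterol between membranes and a known SREBP target, ran the other way. It was at 34.7, 34.8 and 38.1 CPM in control and at 19.1, 14.9 and 17.7 CPM with IL-1β. It fell by 1.06 ± 0.09 on the log2 scale (edgeR, adjusted p = 4.29e-11), and the groups did not overlap.

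Both efflux pump genes among the members rose and the receptors split. Of 12 other LXR target and efflux genes tested, 4 rose and 7 fell with IL-1β, with a median log2 change of −0.87. Abcg1 (ENSMUSG00000024030), which passes cholesterol to lipoprotein particles, was low in control at 0.960, 0.452 and 0.914 CPM, from 47 counts in all, and stood at 5.04, 5.09 and 7.23 CPM with IL-1β, all above control. The rise was 2.91 ± 0.25 on the log2 scale, or 7.53-fold (edgeR, adjusted p = 1.14e-10). Abca1, which loads cholesterol onto apolipoprotein, rose from 29.4 ± 1.53 to 44.3 ± 0.993 CPM (0.59 ± 0.06).

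Nr1h2, which encodes LXRβ, rose from 46.9 ± 0.592 to 80.5 ± 2.36 CPM (edgeR, adjusted p = 8.04e-14). Nr1h3 (ENSMUSG00000002108), which encodes LXRα, was at 3.54, 3.12 and 3.20 CPM in control and 1.52, 1.64 and 1.65 CPM with IL-1β, and fell by 1.03 ± 0.26 on the log2 scale (edgeR, adjusted p = 0.000826), with all control libraries above all IL-1β libraries. Per kilobase, LXRβ transcripts exceeded those of LXRα in all groups, at 14.0 against 1.31 CPM per kb in control and 24.0 against 0.637 with IL-1β.

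The oxysterol enzymes showed the largest rises among the 33 members. Ch25h (ENSMUSG00000050370) had 5, 9 and 4 counts in the control libraries and 222, 216 and 280 with IL-1β, or 0.253, 0.406 and 0.203 CPM against 13.5, 13.1 and 15.9 CPM. Every IL-1β library lay far above every control library, and the rise was 5.57 ± 0.22 on the log2 scale, or 47.5-fold (edgeR, adjusted p = 4.89e-18). Cyp7b1 (ENSMUSG00000039519) rose from 3.13, 2.71 and 2.34 CPM to 48.4, 47.1 and 41.5 CPM, by 4.06 ± 0.10 or 16.7-fold (edgeR, adjusted p = 4.94e-22), again with no overlap.

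A long noncoding RNA gene, Gm26902, lies over Ch25h on the other strand, and its counts were 8, 3 and 8 in control and 246, 238 and 276 with IL-1β, close to those of Ch25h. The library kit keeps strand, but the labels do not say whether reads were assigned by strand, so reads of this pair cannot be told apart. Of the other members, Cyp51, Fdft1, Npc1 and Srebf1 overlap a protein-coding gene on the opposite strand and Tm7sf2 one on its own strand. Over all libraries Fdft1 held 3765 counts against 83269 for Ctsb, Cyp51 8251 against 27249 for Akap9, and Tm7sf2 427 against 2864 for Vps51. Npc1 and Srebf1 held more than their neighbours, 17287 against 6309 for Rmc1 and 33854 against 10534 for Rai1. The part of neighbours' reads in these members' values was not tested.

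Macrophages also use Ch25h, and the summed level of macrophage markers was higher in the same libraries, though single markers went both ways. Of 14 markers 6 had enough counts to be tested, 4 of which rose and 1 fell, and the sum of all 14 was 17.7 to 19.0 CPM in control, 55.5 to 59.7 CPM with IL-1β and 37.8 to 43.3 CPM with SFRP5. The rise of the sum was carried by Cd14 (77 to 1384 counts), Mrc1 (99 to 565) and Cd68 (90 to 344). Laptm5 fell (199 to 44 counts) and Lyz2 did not pass (481 and 396). Csf1r, the receptor gene for the macrophage growth factor, had 93 counts in control, 115 with IL-1β and 48 with SFRP5, and was called higher with IL-1β (edgeR, adjusted p = 0.0498) and lower when SFRP5 was added (0.00132). Other leukocyte and macrophage genes were under the filter. Ptprc, Adgre1 and Itgam had 6, 20 and 7 counts over the control group and 12, 20 and 5 over the IL-1β group. Cx3cr1 had 14 and 2, C1qa 19 and 5, C1qb 21 and 2, Tyrobp 8 and 7, and Fcgr1 1 and 0. The part of such cells in the rise of Ch25h and Cyp7b1 was not tested.

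Partners of the same oxysterols were measured too. Rora, which encodes RORα, rose from 31.9 ± 0.943 to 204.0 ± 3.21 CPM with IL-1β (2.67 ± 0.05, edgeR, adjusted p = 2.14e-24). Hsd3b7, which acts on the products of CYP7B1, was low at 0.517 ± 0.0984 and 1.33 ± 0.213 CPM and rose as well (edgeR, adjusted p = 0.00328). Gpr183, the membrane receptor for these products, had 0 counts in the control and IL-1β groups, which allows at most 0.135 to 0.182 CPM per library by counting error alone, and 2 counts with SFRP5.

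**Figure D3:**
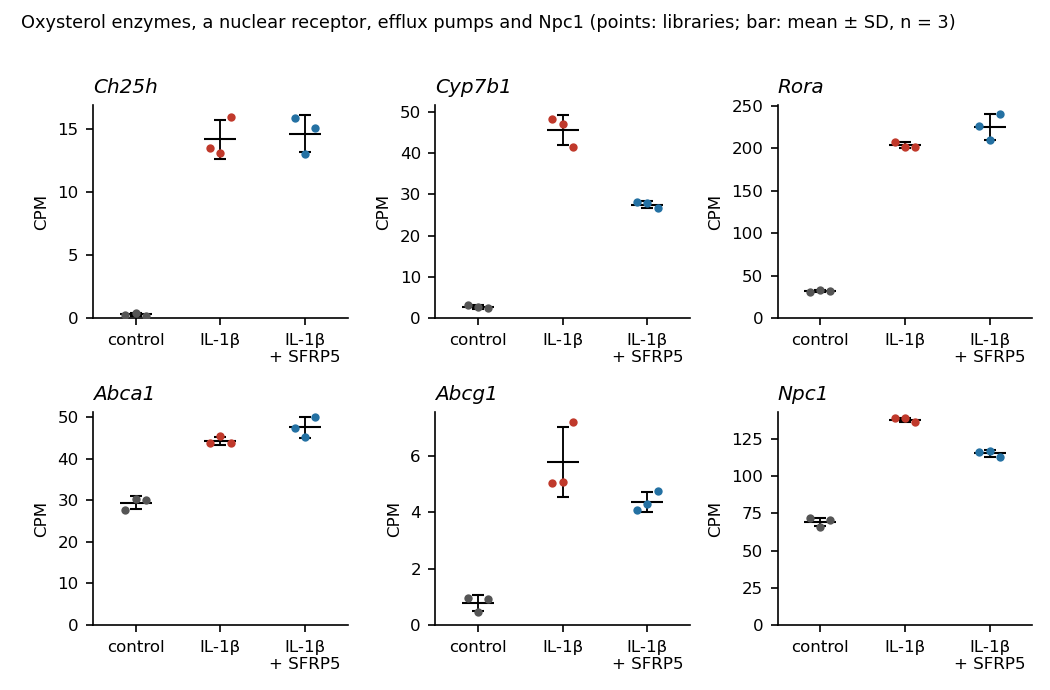
CPM of 6 genes in each library (points) with the mean ± SD of 3 libraries (bars) for control, IL-1β and IL-1β with SFRP5; each axis starts at 0. Ch25h is at a mean of 14.2 CPM with IL-1β and 14.6 CPM when SFRP5 is added, whereas Cyp7b1 goes from 45.7 to 27.5 CPM and Npc1 from 137.8 to 115.2 CPM.

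Other sterol genes beyond the 33 went both ways. A list of 61 gave 60 in the table and 55 tested, of which 25 rose and 27 fell with IL-1β, with a median of −0.17. Of all tested genes 38.5% were called higher and 40.4% lower. After Rora, the largest rises were those of Gramd1a, a sterol carrier at membrane contacts (39.2 ± 2.61 to 156.8 ± 4.05 CPM), and Soat2, the second cholesterol esterifying enzyme (4.68 ± 0.156 to 16.9 ± 1.72 CPM). Abcg4, a relative of Abcg1, had 86 counts in control and 2 with IL-1β. That is 35.3-fold lower, and the exact 95% counting interval runs from 9.47 to 296. Cyp39a1, another oxysterol hydroxylase, was lower by −3.49 (log2) and the fatty acid receptor gene Cd36 by −2.44. Of 6 tested genes in the oxysterol part of this list 2 rose, Rora and Hsd3b7, and 4 fell. The sterol hydroxylase genes Cyp27a1 (−2.07), Cyp46a1 (−2.01) and Cyp39a1 were among those that fell.

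Adding SFRP5 to IL-1β asks whether the protein changes the inflamed state. In this comparison 2 members rose, 6 fell and 25 did not pass, where 15.6% of all tested genes were called higher and 15.7% lower. The changes were small: the members ran from −0.73 to 0.38 on the log2 scale and none reached 2-fold, with a median of −0.03 against 0.01 over all tested genes. Cyp7b1 fell most, followed by Insig1, Sqle, Npc1, Insig2 and Sc5d, and the 2 that rose were Lss and Scap.

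Cyp7b1 was at 28.1, 27.9 and 26.6 CPM with SFRP5, all below the 41.5 to 48.4 CPM of the IL-1β libraries. It fell by 0.73 ± 0.07 on the log2 scale, or 1.66-fold (edgeR, adjusted p = 2.01e-08), and remained 10.1-fold above control. Ch25h was at 15.8, 13.0 and 15.1 CPM with SFRP5, within reach of the IL-1β libraries, with a difference of 0.05 ± 0.12 (edgeR, adjusted p = 0.794). That difference was −0.08 when the counts of Gm26902, at 298, 183 and 208 with SFRP5, were added to those of Ch25h. Per kilobase Cyp7b1 and Ch25h were at 21.1 and 10.2 CPM per kb with IL-1β and at 12.7 and 10.6 CPM per kb with SFRP5. The sum of macrophage markers was also lower with SFRP5 (37.8 to 43.3 against 55.5 to 59.7 CPM), and its part in the Cyp7b1 difference was not tested.

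In the synthesis pathway SFRP5 was accompanied by lower Sqle and higher Lss. Sqle was at 244.2, 243.3 and 233.7 CPM, below all IL-1β libraries (−0.28 ± 0.04, edgeR, adjusted p = 1.19e-05). Lss was at 43.5, 41.4 and 44.7 CPM, above all of them (0.38 ± 0.07, edgeR, adjusted p = 5.92e-05). Sc5d fell from 50.5 ± 2.57 to 43.6 ± 2.40 CPM. The other 15 synthesis genes did not pass, the 7 early mevalonate genes among them, with differences such as 0.06 ± 0.07 for Hmgcs1, 0.22 ± 0.11 for Mvk and 0.10 ± 0.17 for Pmvk. Fdft1 passed edgeR's test without SFRP5 library 3 (adjusted p = 0.0476), Cyp51 without SFRP5 library 2 (0.0138) and Msmo1 without IL-1β library 3 (0.00658).

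Among the regulators Insig1 fell from 61.8 ± 7.20 to 48.5 ± 3.20 CPM (−0.35 ± 0.08, edgeR, adjusted p = 0.00123) and Insig2 from 173.9 ± 11.1 to 148.3 ± 2.85 CPM (−0.23 ± 0.05, adjusted p = 0.000545). Scap rose from 63.5 ± 1.53 to 75.7 ± 1.35 CPM (0.25 ± 0.05, adjusted p = 0.000223), so that it no longer differed from control by the test (0.02 ± 0.05, edgeR, adjusted p = 0.734). That last difference was −0.12 with upper-quartile factors (edgeR, adjusted p = 0.0304). Srebf1 and Srebf2 did not pass, with differences of −0.05 ± 0.05 and 0.01 ± 0.05.

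Npc1 fell from 137.8 ± 1.52 to 115.2 ± 2.07 CPM (−0.26 ± 0.04, edgeR, adjusted p = 5.16e-05), while Npc2 stayed at 298.8 ± 12.6 and 299.4 ± 5.48 CPM (0.00 ± 0.04). Abcg1 was at 4.09, 4.29 and 4.78 CPM with SFRP5, below all IL-1β libraries. Its difference of −0.40 ± 0.20 did not pass (edgeR, adjusted p = 0.131), from 294 counts with IL-1β and 230 with SFRP5. Nr1h2 missed the threshold (−0.12 ± 0.05, edgeR, adjusted p = 0.0577), and passed it with RLE factors (0.0421) or without IL-1β library 3 (0.0458). Abca1, Soat1, Stard4 and Nr1h3 did not pass.

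**Figure D4:**
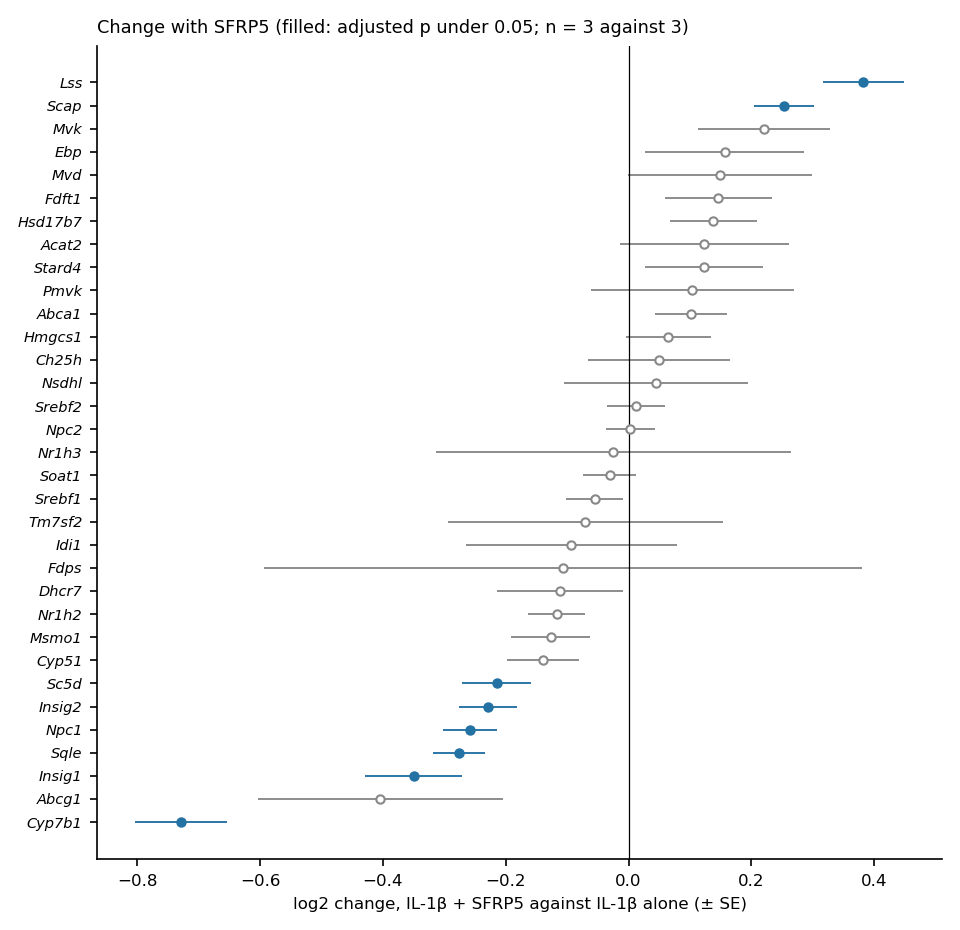
Fitted log2 change ± SE of each of the 33 genes between IL-1β with SFRP5 and IL-1β alone (3 libraries each), ordered by size; filled points passed at an adjusted p under 0.05. Cyp7b1 stands lowest at −0.73 and Lss highest at 0.38, and most genes lie within 0.2 of 0.

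Of the 55 other sterol genes tested 16 rose and 7 fell with SFRP5 (median 0.06), against 15.6% and 15.7% of all tested genes. Cyp39a1 rose from 0.853 ± 0.205 to 2.53 ± 0.555 CPM (edgeR, adjusted p = 6.2e-05). Rora rose by 0.14 ± 0.05 (edgeR, adjusted p = 0.0175). Abcg4 had 13 counts against 2 and passed narrowly (edgeR, adjusted p = 0.0499). The ratio was 6.25, and its exact 95% counting interval runs from 1.41 to 57.0. The falls were led by Cav1, the caveolin of cholesterol-rich membrane pits (116.5 ± 4.89 to 77.3 ± 3.94 CPM), the lipoprotein receptor gene Lrp8 (17.4 ± 0.945 to 11.7 ± 0.743 CPM) and Trib1 (18.1 ± 1.06 to 13.6 ± 2.04 CPM).

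IL-1β with SFRP5 was also set against control, which it shares with the first comparison. Here 14 members rose and 15 fell, where 37.3% of all tested genes were called higher and 39% lower. Ch25h was 49.2-fold higher than control, Sqle 4.75-fold, Insig2 4.28-fold and Abcg1 5.69-fold. Hmgcs1 fell by 1.06 ± 0.06, Pmvk by 1.07 ± 0.15, Idi1 by 1.21 ± 0.15 and Stard4 by 0.94 ± 0.09 on the log2 scale. Lss was higher than control in these libraries (0.51 ± 0.07, edgeR, adjusted p = 1.2e-07). Fdps was called lower (−0.96 ± 0.43, edgeR, adjusted p = 0.0482) although its libraries overlapped those of control. It lost the call in 12 of the 15 alternatives, among them RLE factors (edgeR, adjusted p = 0.0509) and the fit without control library 3 (−0.64, adjusted p = 0.251). Srebf2 lost its call without SFRP5 library 2 (−0.07, edgeR, adjusted p = 0.175). Among the other sterol genes 23 rose and 29 fell, led by Rora (2.82), Soat2 (1.83) and Gramd1a (1.62) upward and by Abcg4 (−2.47), Cyp39a1 (−1.95) and Cyp46a1 (−1.92), a further oxysterol hydroxylase gene, downward.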

How the data were processed

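RNA-seq counts per gene were analysed from 9 libraries of cultured mouse chondrocytes, 3 per group. Per the labels' protocols the libraries were made with a directional kit, and the submitters' processing notes name fastp, STAR, RSEM and mm10. The deposited counts are whole numbers per gene. Versions, rounding and annotation are not given in the sources used here. Start and end equalled those of GENCODE M21 (GRCm38) for 1 of 33 members, so no coordinates were taken from the table. The gene length used for levels per kilobase is another deposited column.

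Libraries were assigned by column name. SFRP5 columns were matched by letter and final digit, since digits before it have no counterpart among the sample titles. Genes were filtered (filterByExpr), scaled by TMM and fitted over all 9 libraries with edgeR 4.0.16's quasi-likelihood test in R 4.3.3. Adjusted p-values are Benjamini-Hochberg over 15502 genes, called under 0.05, and SE is the log2 change divided by the root of F. The edgeR steps were tested on simulated data. The members and gene lists were chosen with earlier results of these data known. Values in every library are given for Ch25h, Cyp7b1 and members called with a log2 change of at least 1 with IL-1β or 0.5 with SFRP5, and in addition for some others. From the other sterol genes the 3 largest called changes in each direction were named, with Gpr183, Hsd3b7 and Rora, and other genes were named after their values were seen. A gene that this rule names is not reported here. Alternatives were RLE and upper-quartile factors, no filter, DESeq2 1.42.0, only the 6 libraries compared, each library left out, a replicate block and, chosen after seeing the data, the sum of Ch25h and Gm26902. RefSeq promoters (GRCm38.p6) were searched by letters.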

Additional observations from a re-analysis of the deposited data

How the results depend on the processing

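Over the alternatives run, the members called higher and lower numbered 13 to 14 and 14 to 17 for IL-1β against control, 2 to 3 and 6 to 8 for SFRP5 added to IL-1β, and 14 and 13 to 17 for both agents against control. Same-numbered libraries did not deviate together (correlations of −0.0364 to 0.0402 over 9 pairs), so numbers were not taken as pairs. With the replicate block the counts were 13 and 16, 2 and 6, and 14 and 14, and the only member's call lost was that of Fdps for both agents against control (−0.94, edgeR, adjusted p = 0.0517). Upper-quartile factors shifted the median log2 change of all genes by −0.147 for IL-1β against control and by −0.134 for both agents against control. For IL-1β they gave 5186 genes higher and 7150 lower, against 5969 and 6258 with TMM, and for both agents 5008 and 6947 against 5788 and 6040. With them Lss for IL-1β was at −0.0188 and Scap for both agents at −0.12. For SFRP5 added to IL-1β, Npc2 was at −0.0054 with RLE factors and with DESeq2, and Ch25h summed with Gm26902 at −0.0774. Several changes that had not passed crossed 0 when 1 library was left out. Leaving out IL-1β library 3 turned 11 values, lost 3 calls and gained 3, where leaving out any other single library turned 0 to 4. For IL-1β, Nsdhl ran from −0.26 to 0.0948. For SFRP5 added to IL-1β the ranges were −0.0193 to 0.14 for Hmgcs1, −0.0288 to 0.18 for Pmvk, −0.0354 to 0.32 for Mvd, −0.27 to 0.0303 for Idi1, −0.32 to 0.15 for Fdps, −0.16 to 0.019 for Tm7sf2, −0.096 to 0.26 for Nsdhl, −0.0212 to 0.0522 for Srebf2, −0.0242 to 0.0357 for Npc2, −0.06 to 0.005 for Soat1, −0.45 to 0.15 for Nr1h3 and −0.0138 to 0.14 for Ch25h. For both agents against control they were −0.11 to 0.0481 for Nsdhl and −0.0043 to 0.0507 for Scap. The cause of these shifts was not tested. Depth limits Fdps and Nr1h3, as well as Abcg1 and Ch25h in control, which rest on few counts.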
